A study of Mus musculus with 4 samples.

Results

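Caveolae and the transcytosis machinery of the brain endothelium were followed through 10 genes: Cav1, Cav2, Cavin1, Cavin2, Cavin3, Plvap, Tfrc, Lrp1, Cltc and Dnm2. They were picked by gene symbol from the 24873 genes listed in a table of normalized read counts, and all 10 were found and tested. After tamoxifen, the caveolins, the cavins, Plvap, the transferrin receptor gene Tfrc and the dynamin gene Dnm2 were lower, with levels between 12.2% and 42.4% of control. The clathrin heavy chain gene Cltc did not pass the test, and Lrp1 was 7.68-fold higher.

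Caveolae are flask-shaped pits of the plasma membrane, built from caveolins that sit in the membrane and cavins that coat it from the cytoplasm. In the capillaries of the healthy brain they are held scarce, since vesicles that shuttle cargo across the cell would bypass the blood-brain barrier. Clathrin-coated pits form a separate route, by which receptors such as the transferrin receptor take up their ligands, and dynamin cuts vesicles of both kinds from the membrane.

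Both groups of mice carried a floxed Mgp gene and a tamoxifen-activated Cre recombinase driven by the VE-cadherin promoter (VE-cadherin cre/ERT2 Mgp fl/fl in the study, Cdh5cre;Mgpflox/flox in the labels). Mgp encodes matrix Gla protein, an inhibitor of bone morphogenetic proteins, and its loss in endothelial cells (ECs) serves as a model of cerebral arteriovenous malformations. The tamoxifen group was 10 weeks old when its 5 daily injections of 75 mg/kg tamoxifen began. Controls carried the same alleles without tamoxifen, so in these libraries exposure to the drug and loss of Mgp cannot be told apart. Cells were collected on day 9, with 2 libraries per group and the cells of 3 mice pooled in each, so that the values of single animals are averaged. The study describes these cells as CD31+CD45- cerebral ECs, whereas the labels name brain cells positive for tdTomato. Table columns lettered A were read as the tamoxifen libraries by elimination, since the letter stands in no label. Between 35387438 and 49799321 reads per library lay on genes.

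Mgp itself had 1094 and 1352 normalized counts in the control pools against 945 and 909 after tamoxifen, a difference that did not pass the test (log2 fold change -0.39, limma, BH-adjusted p = 0.0986). Its value turned to 0.08 when the libraries were set to equal totals and passed the test at -0.65 after quantile normalization (adjusted p = 0.0129). By real-time PCR, the study reports that Mgp decreased in cerebral ECs after tamoxifen. Markers that define ECs were present in all libraries but lower after tamoxifen. The summed level of 12 such genes, which include Pecam1, Cdh5 and Kdr, was 1058804 and 1072751 in controls and 181527 and 93730.0 after tamoxifen, and all 12 fell. Most marker lists of other cells moved the opposite way, with 6 of 6 astrocyte, 6 of 6 fibroblast, 6 of 6 neutrophil, 6 of 6 proliferation, 8 of 8 erythroid and 5 of 6 choroid plexus genes higher. Of the 8 pericyte and smooth muscle genes, 2 were higher and 6 did not pass, and of the 6 microglia genes 3 were higher. Pituitary markers went the same way as the endothelial ones, 6 of 6 lower. In bulk RNA of this kind, fewer cells of a type and less RNA per cell cannot be told apart.

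Of the 10 genes, 8 were called lower and 1 higher at an adjusted p under 0.05 and a log2 fold change over 1 in size. Across the 20485 genes tested, 16% were called lower and 28.6% higher by the same cut-offs, 44.7% in all. The libraries of the groups did not overlap for 9 members (8 lower, 1 higher), and for 82.3% of all tested genes (39.2% lower, 43.1% higher). The 10 genes had a median log2 fold change of -1.72, beside 0.05 over all genes tested. Other scalings moved the median of all genes to 0.52 (equal totals) or -0.20 (quantile normalization), and the share of calls that were higher from 64.1% to 79.7% or 47.2%. Under each of them 6 members were called lower and 1 higher, since Cavin3 and Tfrc (equal totals) and Dnm2 and Tfrc (quantile normalization) missed a cut-off. Fold changes are on the scale of log2(normalized count + 1), as tamoxifen minus control, with the standard error (SE) of limma and p-values adjusted by Benjamini and Hochberg (BH) over all tested genes. Genes are said to have risen or fallen where the adjusted p was under 0.05, which held for 58.9% of all tested genes.

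**Figure D1:**
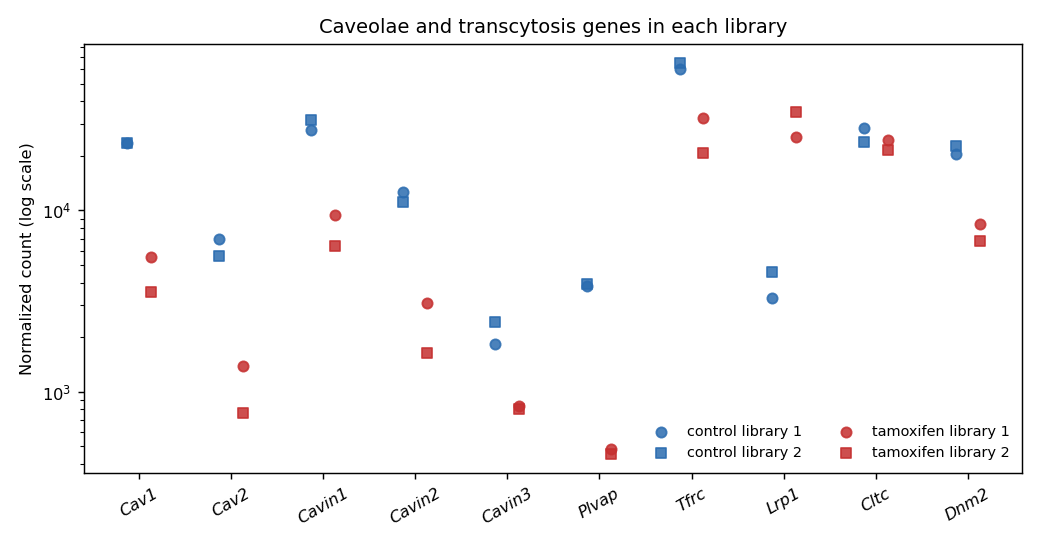
Normalized counts of the 10 genes in each library, on a log axis, with control libraries in blue and tamoxifen libraries in red (circles for library 1, squares for library 2). Both red points lie below both blue points for Cav1, Cav2, Cavin1, Cavin2, Cavin3, Plvap, Tfrc and Dnm2, above them for Lrp1, and overlap them for Cltc.

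Caveolin-1 and caveolin-2 are the membrane proteins around which endothelial caveolae are assembled. Their genes are neighbours on chromosome 6 of GRCm39, with Cav2 (17281026 to 17289877, plus strand) ending 16.3 kb before Cav1 (17306140 to 17341451, plus strand). Bases just upstream of the annotated start are shown for the pair and for 3 further members, as a reference for genes that moved together or, for Lrp1, the opposite way. They come from RefSeq promoter entries of a GRCm38.p6 table, which held 8 of the 10 members (not Cavin3 and Plvap), and were located by exact match in GRCm39. The stretches are chr6:17306084-17306139 for Cav1, chr6:17280934-17281025 for Cav2, chr1:51328035-51328265 for Cavin2, chr9:21335954-21336182 for Dnm2, all on the plus strand, and chr10:127457018-127457267 on the minus strand for Lrp1. Each is written 5′ to 3′, and capitals mark GGAA (the core bound by ETS factors) and CCAAT, or TTCC and ATTGG where the motif lies on the other strand.
Cav1: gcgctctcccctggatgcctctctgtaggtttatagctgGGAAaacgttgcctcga
Cav2: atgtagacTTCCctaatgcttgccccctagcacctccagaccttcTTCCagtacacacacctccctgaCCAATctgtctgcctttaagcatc
Cavin2: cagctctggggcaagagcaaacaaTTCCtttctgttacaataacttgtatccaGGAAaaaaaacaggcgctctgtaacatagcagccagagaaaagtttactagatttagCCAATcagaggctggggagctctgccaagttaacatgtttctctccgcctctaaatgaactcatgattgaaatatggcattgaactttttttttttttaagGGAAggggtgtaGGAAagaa
Dnm2: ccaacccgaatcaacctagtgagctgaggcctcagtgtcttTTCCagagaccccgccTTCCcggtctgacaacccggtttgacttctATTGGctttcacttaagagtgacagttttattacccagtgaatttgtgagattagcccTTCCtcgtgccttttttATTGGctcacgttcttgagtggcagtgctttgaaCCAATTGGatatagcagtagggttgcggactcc
Lrp1: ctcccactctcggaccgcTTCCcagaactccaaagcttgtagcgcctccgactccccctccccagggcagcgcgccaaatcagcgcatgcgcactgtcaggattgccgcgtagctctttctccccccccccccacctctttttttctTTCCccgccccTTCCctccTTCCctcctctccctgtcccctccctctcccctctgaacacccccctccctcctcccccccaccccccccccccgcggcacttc
Motifs were counted on both strands in the whole window of 250 bases before the RefSeq start. Many windows reach into the gene as GENCODE draws it, by 194 bases for Cav1, 158 for Cav2 and all 250 for Cavin1. Some matches therefore lie outside the stretches shown and not upstream of the GENCODE start. GGAA occurred in the first entry of 7 of the 8 matched members, with 1 match for Cav1, 3 for Cav2, 4 for Cavin2, 3 for Dnm2 and 4 for Lrp1, and in 93.4% of the 32536 windows of the table. Tfrc had no match in its first entry and 3 in its second. CCAAT occurred at Cav2, Cavin1, Cavin2, Tfrc and Dnm2, with 4 matches at Dnm2 of which the palindrome near the 3′ end counts on both strands, and in 33.8% of windows. The AP-1 motif TGACTCA was found at Cav2 alone and in 4.45% of windows. An E-box of SNAIL factors, CACCTG, was found at Tfrc and in the second entry of Cav1, and in 17.3% of windows. The GATA motif AGATAA was found at no member and in 9.97% of windows.

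Cav1 had 23544 and 23532 normalized counts in controls and 5556 and 3540 after tamoxifen. The control pools were nearly equal and both tamoxifen pools lay far below them, with the second lower than the first. Cav1 fell by 2.41 on the log2 scale (SE 0.23, limma, BH-adjusted p = 0.000116), to 19.3% of its control level. Cav2, which needs caveolin-1 to reach the surface, had 6965 and 5643 normalized counts in controls and 1380 and 761 after tamoxifen. The groups were again well apart, and Cav2 fell by 2.61 (SE 0.27, limma, BH-adjusted p = 0.000163). The ratio of Cav1 to Cav2, both per kb of transcript, was 4.16 and 5.13 in controls and 4.95 and 5.72 after tamoxifen, so the range of the groups overlapped while both genes dropped.

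Cavins form the coat that shapes the caveola. Cavin1, the member without which caveolae are not formed, lies on chromosome 11 (100847559 to 100861713, minus strand). It had 27747 and 31702 normalized counts in controls and 9393 and 6336 after tamoxifen. The groups did not overlap, and Cavin1 fell by 1.94 (SE 0.23, limma, BH-adjusted p = 0.000294). Cavin2, which binds phosphatidylserine and whose gene lies on chromosome 1 (51328266 to 51345710, plus strand), had 12566 and 11179 normalized counts in controls and 3102 and 1629.7 after tamoxifen. Both tamoxifen values were under both controls, and Cavin2 fell by 2.40 (SE 0.28, limma, BH-adjusted p = 0.000269), close to Cav1.

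Cavin3, a protein kinase C binding cavin encoded on chromosome 7 (105128391 to 105131507, minus strand), had the smallest fold change of the 3 cavins. Per kb of transcript it was the lowest of them in both controls. After tamoxifen it had 328 and 313 normalized counts per kb, within the range of Cavin2 (465 and 245). It had 1837 and 2413 normalized counts in controls and 839.9 and 802 after tamoxifen. Both tamoxifen libraries lay below both controls, and the log2 fold change was -1.36 (SE 0.19, limma, BH-adjusted p = 0.000563), which leaves 38.6% of the control level. The call was lost without tamoxifen library 1 (adjusted p = 0.0569) or 2 (adjusted p = 0.0657), and with equal totals the log2 fold change of -0.89 was under the size cut-off (adjusted p = 0.00545). Within each library, Cavin1 per kb was 11.1 and 9.64 times Cavin3 in the controls and 8.20 and 5.80 times after tamoxifen, lower in both tamoxifen libraries.

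Plvap encodes the protein of the diaphragms that span the stomata of caveolae and the pores of fenestrated capillaries, a marker of vessels without a barrier. It lies on chromosome 8 (71948674 to 71964506, minus strand). Plvap had 3817 and 3907 normalized counts in controls and 487 and 457 after tamoxifen. Replicates agreed closely in both groups, and Plvap fell by 3.03 (SE 0.16, limma, BH-adjusted p = 1.07e-05), the largest fall among the 10 genes, to 12.2% of control. Pituitary markers, from an organ with fenestrated vessels, were also lower after tamoxifen. Their sum differed between the control pools, in which Plvap was nearly equal. All 6 fell, with summed levels of 13118 and 36981 in controls and 127 and 95.6 after tamoxifen, and Gh, Prl and Pou1f1 were at or under 3 reads in both tamoxifen libraries. Choroid plexus markers, from another site of fenestrated vessels, went the other way, with sums of 1081 and 3615 against 16922 and 51061. The part of either tissue in the Plvap values was not tested. Gtpbp3 overlaps Plvap on the opposite strand with a mean of 961 normalized counts, and since the strand setting of the counting is not given in the sources used here, the reads of the pair may be mixed.

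The transferrin receptor carries iron-loaded transferrin into brain ECs and is the receptor most often used to bring antibodies across them. Tfrc (chromosome 16, 32427556 to 32451612, plus strand) had the highest level per kb of transcript of the 10 genes in every library. It read 60176 and 64579 normalized counts in controls and 32287 and 20606 after tamoxifen. The groups did not overlap, and Tfrc fell by 1.27 (SE 0.29, limma, BH-adjusted p = 0.00671), to 42.4% of control. Without tamoxifen library 2 the log2 fold change was -0.95 and the call was lost (limma, BH-adjusted p = 0.0659), and after quantile normalization it was -0.30 (adjusted p = 0.295). With equal totals it was -0.80, under the size cut-off (limma, BH-adjusted p = 0.0253). Erythroid and proliferating cells also take up much transferrin. The summed erythroid markers were 19360 and 39341 in controls and 174230 and 113071 after tamoxifen, and the proliferation markers 1027 and 1198 against 76290 and 74012. Their part in the Tfrc values was not tested.

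Lrp1 encodes a large receptor that clears amyloid-β, apolipoprotein E and protease complexes, and is found in many cell types of the brain. It lies on chromosome 10 (127374012 to 127457017, minus strand) and was the single member to rise. Lrp1 had 3276 and 4553 normalized counts in controls and 25442 and 34711 after tamoxifen. The lowest tamoxifen value was far above the highest control value, and the log2 fold change was 2.94 (SE 0.23, limma, BH-adjusted p = 5.63e-05). Lrp1 was also the only member that was higher in tamoxifen library 2 than in library 1, whereas the other 9 were lower there. Astrocyte markers showed the same order between these libraries, with summed levels of 28644 and 34057 in controls and 145680 and 304011 after tamoxifen. So did the summed pericyte and smooth muscle markers (28419 and 58886 after tamoxifen) and choroid plexus markers (16922 and 51061). The sums of the other marker lists were lower in tamoxifen library 2 than in library 1. Fibroblast markers were 2257 and 3213 in controls and 69745 and 59759 after tamoxifen. The part of these cells in the Lrp1 values was not tested.

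Clathrin heavy chain and dynamin-2 serve all cells that internalize membrane, the first as the lattice of the coat and the second as the GTPase that cuts the neck of the vesicle. Cltc (chromosome 11, 86584060 to 86648928, minus strand) had 28437 and 23964 normalized counts in controls and 24572 and 21583 after tamoxifen. The ranges overlapped, and the log2 fold change was -0.18, with a 95% interval from -0.68 to 0.32 (limma, BH-adjusted p = 0.494). Its direction depended on the scaling, with 0.29 when libraries were set to equal totals (adjusted p = 0.186) and 0.59 after quantile normalization (adjusted p = 0.0176). Dnm2 (chromosome 9, 21336183 to 21419059, plus strand) had 20357 and 22618 normalized counts in controls and 8447 and 6817 after tamoxifen. The groups were apart, and Dnm2 fell by 1.50 (SE 0.19, limma, BH-adjusted p = 0.000382). After quantile normalization the log2 fold change was -0.89, under the size cut-off (adjusted p = 0.00307). Per kb of transcript, Cltc stood at 0.661 and 0.501 times Dnm2 in the controls and at 1.38 and 1.50 times Dnm2 after tamoxifen, so their order was exchanged in both tamoxifen libraries.

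**Figure D2:**
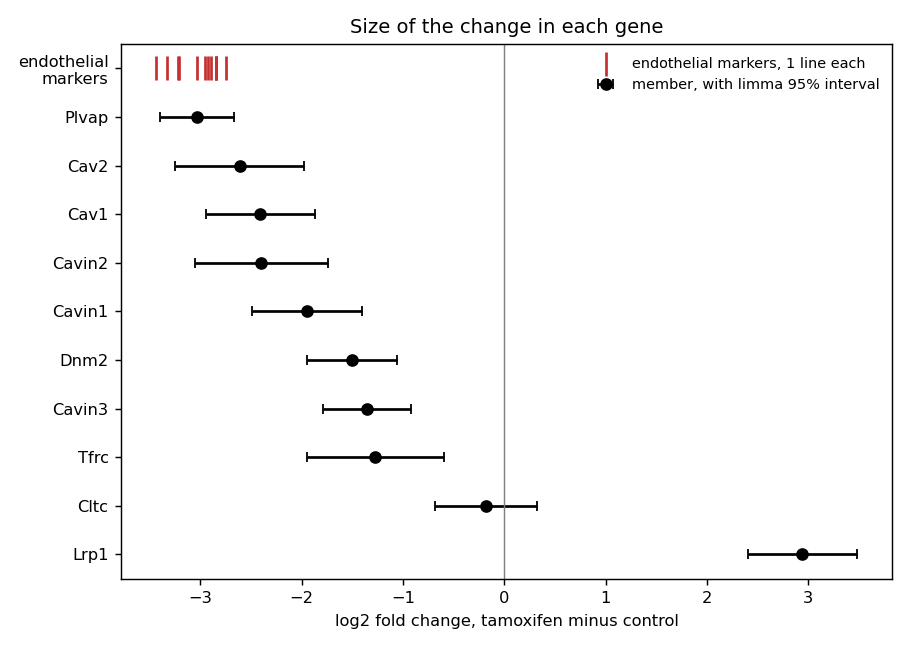
Log2 fold change (tamoxifen minus control) of each of the 10 genes as a point with its 95% interval from limma, above which red lines give the 12 endothelial markers, 1 line each. The intervals of 8 genes lie below 0, that of Cltc spans 0 and that of Lrp1 lies above 0, while the markers run from -3.43 to -2.75.

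Levels of different genes were compared per kb of the canonical transcript. In the control libraries Tfrc was highest, with 12743 ± 636 normalized counts per kb (SD, n = 2), followed by Cavin1 with 8515 ± 801 and Cav1 with 8277 ± 2.94. Cavin1 and Cav1 did not differ beyond their spread. Dnm2 and Cltc came next, then Plvap, Cav2 and Cavin2, whose ranges overlapped at 1842, 1803 and 1781 normalized counts per kb, and last Cavin3 with 830 and Lrp1 with 263. After tamoxifen Tfrc was still highest, at 5403 normalized counts per kb, but Cltc stood in second place with 3271. Dnm2, Cavin1, Lrp1 and Cav1 formed a group whose neighbours overlapped, from 2286 down to 1599 normalized counts per kb. Lrp1 thus moved from the last to the fifth place, and Plvap from the sixth to the last. The ratio of Cltc to Cav1 per kb was 0.487 and 0.410 in controls and 1.78 and 2.46 after tamoxifen. Lrp1 stood at 0.0266 and 0.0369 times Cav1 in controls and at 0.874 and 1.87 times Cav1 after tamoxifen.

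Since the endothelial markers fell as well, each member was also read against them within the same library. The mean log2 level of the 12 markers was 16.01 and 16.07 in controls and 13.50 and 12.54 after tamoxifen, a difference of -3.02. Every one of the 12 markers fell by more than each member except Plvap, which 4 of the 12 exceeded. Plvap had a mean relative log2 fold change of -0.01 with a 95% interval from -1.19 to 1.17 (limma, BH-adjusted p = 0.990). Its tamoxifen libraries lay on either side of the controls, and the value was -0.44 without tamoxifen library 2 and 0.43 without tamoxifen library 1. Cav1, Cav2 and Cavin2 had relative values of 0.62, 0.41 and 0.63, none of which passed (limma, BH-adjusted p = 0.204, 0.475 and 0.234).

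Relative to the markers, limma found 6 of the 10 genes higher after tamoxifen and 0 lower (also 0 at an unadjusted p under 0.05), while 88.2% of all tested genes passed by the same measure, 88.1% higher and 0.083% lower. The 6 were Cavin1 (1.08, limma, BH-adjusted p = 0.0192), Dnm2 (1.52), Cavin3 (1.67), Tfrc (1.75), Cltc (2.84) and Lrp1 (5.97). For Cavin1, the log2 level minus the marker mean was -1.25 and -1.12 in controls and -0.30 and 0.09 after tamoxifen. Its relative call was lost with the replicate block (limma, BH-adjusted p = 0.0978), without the trend (0.142) and without control library 1 (0.356) or 2 (0.314). Subtraction of the marker mean gives all genes of a library the same deviation, for which limma set the prior degrees of freedom to infinity. The spread is thereby taken as known although it rests on 2 pools per group, so these p-values are too small and the intervals too narrow. The count of 6 became 2 without either control library and 8 without either tamoxifen library.

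**Figure D3:**
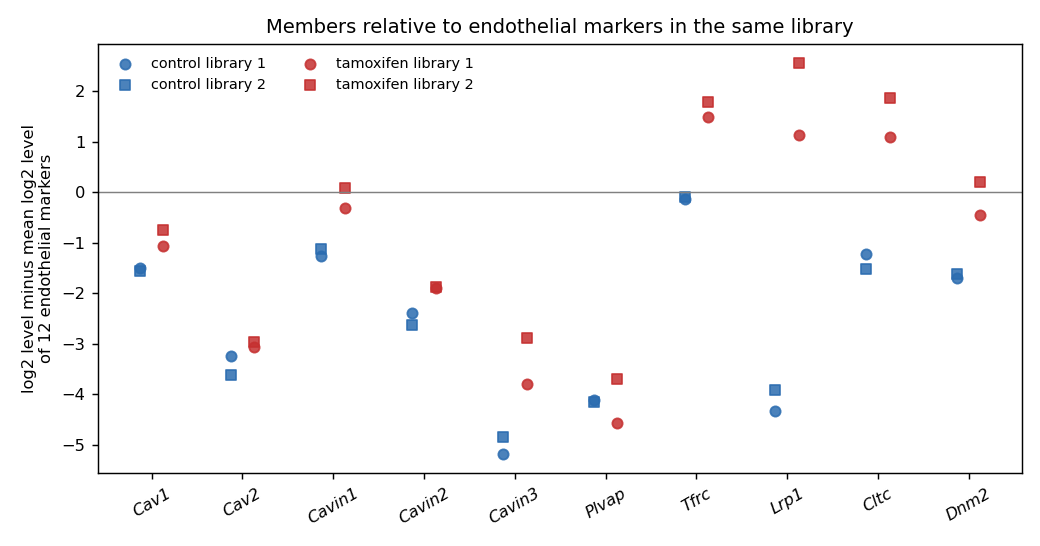
Log2 level of the 10 genes minus the mean log2 level of 12 endothelial markers in the same library, with control libraries in blue and tamoxifen libraries in red. Blue and red points overlap for Plvap, lie less than 1 unit apart on average for Cav1, Cav2 and Cavin2, and are furthest apart for Lrp1, at 5.97.

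A wider set of 60 genes of the same routes was read from the same fit, of which 58 were listed in the table (not Cav3 and Tf). These genes were not read against the endothelial markers, whose mean log2 level differed by -3.02. The lowest log2 fold change of the 58 was -2.81. At both cut-offs 19 were lower and 9 higher, which is 32.8% and 15.5% of the 58 against 16% and 28.6% of all tested genes, and their median log2 fold change was -0.34. By the adjusted p alone 24 fell, 11 rose and 23 did not pass, which is 41.4% lower and 19.0% higher against 25.5% and 33.4% of all tested genes. Without tamoxifen library 2, 12 were called lower and 5 higher. With equal totals 13 were called lower and 10 higher, beside 1838 lower and 7206 higher of all 20485 tested genes. After quantile normalization 15 were lower and 9 higher, beside 5276 and 4723 of all tested genes. The share called lower was there near that of all genes.

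Genes of proteins that restrain or stabilize caveolae, of their relatives and of flotillins made up the first list. Of these 11 genes, 4 fell and 3 rose. With equal totals 3 fell and 5 rose, and after quantile normalization 5 fell and 4 rose. Beside this list and those below, 25.5% of all tested genes fell and 33.4% rose at the deposited scaling. Such shares were not worked out for the other scalings, which moved the calls of all genes. With the size cut-off as well, 3284 of all genes were lower and 5867 higher. These became 1838 and 7206 with equal totals and 5276 and 4723 after quantile normalization. The counts of a list at those scalings therefore have no matching share beside them. Mfsd2a, the lipid transporter of the barrier that keeps caveolae few, had 42749 and 46271 normalized counts in controls and 12826 and 8491 after tamoxifen. It fell by 2.09 (limma, BH-adjusted p = 0.000277), a value between those of Cavin1 and Cavin2. The endothelial markers had log2 fold changes from -3.43 to -2.75. Ehd2, the ATPase at the neck of caveolae, had 10211 and 11423 normalized counts in controls and 3384 and 2534 after tamoxifen, and fell by 1.88 (limma, BH-adjusted p = 0.000130). Pacsin2, which bends the membrane of the neck, did not pass (0.04, limma, BH-adjusted p = 0.827). The largest rises were those of Pacsin1 (3.52), its relative in neurons, and of the flotillin gene Flot2 (3.13), which were both low in the controls.

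Among 19 genes of the clathrin coat and of membrane fission, 8 fell, 2 rose and 9 did not pass. With equal totals 7 fell and 4 rose, as they did after quantile normalization. Paralogues parted here. Dnm3 fell to 15.8% of its control level (limma, BH-adjusted p = 0.000125), from 7229 and 5529.5 normalized counts in controls to 1270.2 and 740.5, and Fcho2, an early organizer of the pit, fell by 1.80. Dnm1, the dynamin of synapses, rose by 3.32 (limma, BH-adjusted p = 8.35e-05), from 108 and 180.2 to 1522 and 1302, and Fcho1 by 3.07. Per kb of transcript, Dnm1 was the lowest of the 3 dynamin genes in controls, with 37.7 normalized counts, and Dnm3 was the lowest after tamoxifen, at 218 against 369 for Dnm1. None of the adaptor genes Ap2a1, Ap2a2, Ap2m1 and Ap2s1 passed. Ap2b1 fell by 0.68 (limma, BH-adjusted p = 0.0129), but not with the libraries set to equal totals (adjusted p = 0.226) or after quantile normalization (adjusted p = 0.801).

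Of 12 receptors of endocytosis and transcytosis, 6 fell, 5 rose and Lrpap1 did not pass. Igf1r, the receptor of insulin-like growth factor, fell by 2.81, the most of the list. Fcgrt, the Fc receptor that recycles antibodies, had 19634 and 21242 normalized counts in controls and 5446 and 2867 after tamoxifen, and fell by 2.37 (limma, BH-adjusted p = 0.000300). Insr, the insulin receptor, had 33374 and 24973 in controls and 8137 and 5130.1 after tamoxifen, and fell by 2.16 (limma, BH-adjusted p = 0.000319). Several lipoprotein and lipid receptors rose from low control levels, while Lrp8 (log2 fold change -1.71) and Scarb1 (-2.05) fell from high ones. Lrp2 (megalin, which is abundant in absorptive epithelia) went from 12.3 and 11.3 normalized counts to 2329 and 2387, a log2 fold change of 7.53 (limma, BH-adjusted p = 5.97e-06), and the fatty acid transporter gene Cd36 rose by 5.58.

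By limma, edgeR and DESeq2 alike, 5 of 9 endosomal sorting genes fell and 0 rose (also 0 at an unadjusted p under 0.05). This split depended on the scaling, with 3 lower and 3 higher at equal totals and 3 and 2 after quantile normalization. The recycling GTPase genes Rab11a (-1.51) and Rab11b (-1.28) had the largest falls. Of 7 iron uptake partners of Tfrc, 1 fell, 1 rose (4 with equal totals, 3 after quantile normalization) and 5 did not pass, with log2 fold changes from -0.12 for the ferritin gene Fth1 to 0.37 for Ireb2, an iron sensor. The second ferritin gene, Ftl1, rose by 0.52 (limma, BH-adjusted p = 0.0200). Slc40a1, the gene of ferroportin, which exports iron from the cell, had 41875 and 34172 normalized counts in controls and 7656 and 4595 after tamoxifen, and fell by 2.67 (limma, BH-adjusted p = 0.000135).

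**Figure D4:**
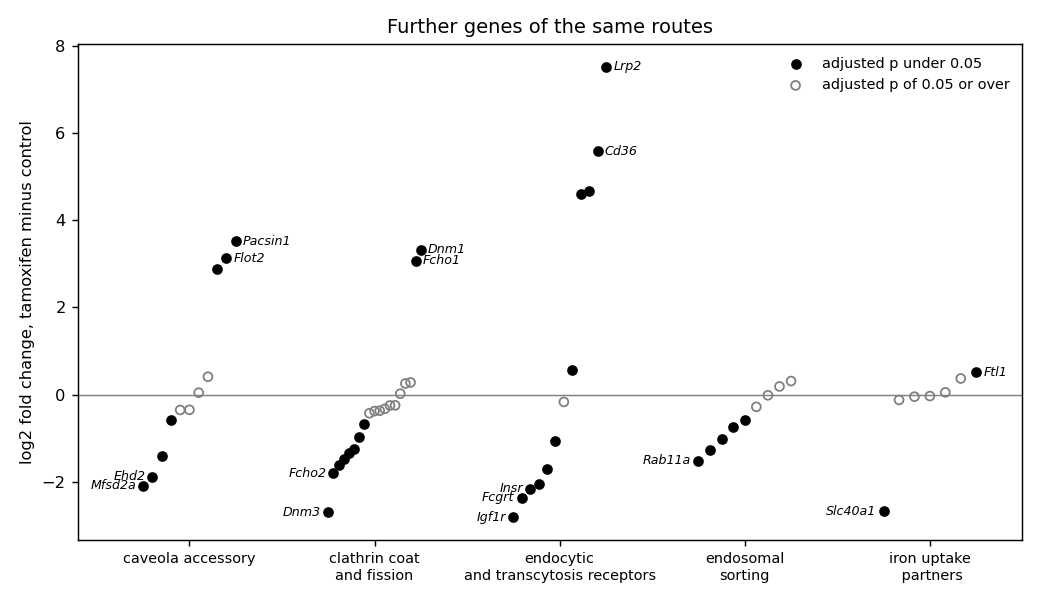
Log2 fold change (tamoxifen minus control) of 58 further genes in 5 lists, sorted within each list, with filled points at an adjusted p under 0.05 and open points otherwise. Rises reach 7.53 for Lrp2 and falls -2.81 for Igf1r, and the endosomal sorting list holds 5 filled points, all below 0 at the deposited scaling.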

How the data were processed

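The labels give genotype and treatment, and the study's methods give dose, age, day and pooling. Per the submitters' processing notes, alignment used STAR 2.7.10a on GRCm39 and normalization DESeq2 1.36.0. The annotation release and strand setting are not given in the sources used here. Each deposited value is a signal, the read count of a gene after the authors scaled it by a factor of its library (0.730 and 0.799 for control, 0.923 and 1.39 for tamoxifen). Whole reads were recovered for 100% of values (tolerance 0.001).

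limma 3.58.1 in R 4.3.3 (lmFit, then eBayes with the trend option) was run on genes whose mean reached 10 normalized counts, as log2(normalized count + 1), with BH adjustment over all 20485 genes and a log2 fold change of 1 as the size cut-off. The procedure was tested on simulated data in which few genes changed, so that test does not cover a shift as wide as the one here. p-values rest on the spread between 2 pools per group, which limma moderates toward a trend over all genes (prior degrees of freedom 5.63). For relative values, the mean log2 level of 12 endothelial markers was subtracted in each library. Positions, lengths and exons came from GENCODE M39, matched by symbol for 24451 of 24873 genes.

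As alternatives, the pseudocount was set to 0.5 or 5, the filter dropped or raised to a mean of 100, libraries scaled to equal totals or by quantiles, the trend omitted, the replicate number added as a block, recovered reads fitted by edgeR 4.0.16 or DESeq2 1.42.0, and single libraries omitted. Also tried were the adjusted p alone and, for relative values, Pecam1 and Cdh5 alone. The members and lists were chosen with earlier results of these data known. Named were all members, up to 2 largest rises and falls per list past the adjusted p, and Mfsd2a, Fcgrt, Insr, Ehd2, Pacsin2, Dnm1 and Dnm3, besides a gene that is not reported here. The genes within 500 kb of Cav1 and the 5 nearest to it in profile were named too. Ap2 genes, Lrpap1, Lrp8, Scarb1, Fth1, Ireb2 and genes that overlap members were named after their values were seen.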

Additional observations from a re-analysis of the deposited data

How the results depend on the processing

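Across 14 alternatives for each of the 10 members (140 values), 134 kept their direction and their side of the adjusted p of 0.05. With the size cut-off as well, the calls of Cavin3 and Tfrc were each lost in 3 alternatives and that of Dnm2 in 1, as given above, and Cltc reversed to 0.29 with equal totals and to 0.59 after quantile normalization. The number of members called lower stayed between 6 and 8, and 1 was higher in every alternative. Over all genes, 5934 were called with the filter at a mean of 100, where fewer genes were tested, and between 4147 (without tamoxifen library 2) and 9700 with a library left out. DESeq2 called 8739 and edgeR 9241. With a library left out, 12 to 19 of the further genes were called lower and 5 to 9 higher, and 2 to 8 members were higher against the endothelial markers. Plvap relative to the markers was 0.0019 with a pseudocount of 5 and ranged from -0.44 to 0.43 with a library left out. The cause of these changes was not tested. Deviations of same-numbered libraries from their group means correlated at 0.0251 over 20485 genes. With 2 libraries per group this is a single value, which cannot exclude that they shared a batch or a day. With the replicate block 9525 genes were called, and 8 members were lower and 1 higher, while 5 members were higher against the markers, without Cavin1. Where 1 library stood alone in its group, its spread was assumed to equal that of the other group. Depth did not limit the members, since each had over 400 reads in every library.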

Other observations

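The region around Cav1 was read for neighbours, since Cav2 and Cav1 lie side by side. Within 500 kb, 6 other genes were tested. Tes, whose gene codes for a protein of focal adhesions, fell by 1.29 (limma, BH-adjusted p = 0.000720), less than both caveolins. Met, the receptor of hepatocyte growth factor, rose from 61.6 and 92.6 normalized counts in the controls to 960.2 and 783 after tamoxifen, with a log2 fold change of 3.50 (limma, BH-adjusted p = 9.17e-05). Tfec, a transcription factor gene, had 4.57 (limma, BH-adjusted p = 0.000380) from fewer than 5 normalized counts in each control library. Capza2 (-0.20), St7 (0.45) and Gm4876 (-1.25) did not pass, and Gm4876 overlaps Tes, so their reads may be mixed. Genes that overlap other members were low beside them, with means of 513 normalized counts for Tmed1, 33.2 for Gm57035 and 18.8 for Mir199a-1 at Dnm2 and 113 for Gm57383 at Cavin1.

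By Euclidean distance of the 4 centred log2 values, the genes nearest to Cav1 were Fmnl3 (distance 0.0369), F11r (0.0463), Synm (0.0588), Gm5148 (0.0674) and Abcc4 (0.0711). F11r codes for the junctional adhesion molecule JAM-A, and Fmnl3 for a formin. Among the members, Cavin2 stood closest, at rank 116 of the tested genes, before Cav2 at rank 257, Cavin1 at 529 and Plvap at 1021, and Lrp1 was the farthest at rank 17041. These ranks rest on 4 libraries in 2 groups. Within the tamoxifen group, library 1 exceeded library 2 by 1.90-fold for Cavin2, 1.81-fold for Cav2 and 1.57-fold for Cav1, beside a median of 2.02-fold for the endothelial markers, and by 1.07-fold for Plvap and 1.05-fold for Cavin3.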
